A study of Mus musculus with 16 samples.

Results

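RNA carried by astrocyte ribosomes was compared between mice whose astrocytes expressed bARK and mice whose astrocytes expressed bARK(D110A). bARK is a peptide of the beta-adrenergic receptor kinase used to attenuate Gq signalling, and bARK(D110A) carries a single substitution in it. The comparison uses 8 of the 16 sequencing libraries of the series, 4 precipitated (IP) libraries per construct, and all genes of the count table. The other 8 libraries hold RNA of the cleared lysate (input) of the same striata. All 4 groups came from the striatum of male C57BL/6J mice aged 9 weeks with a genotype given as wildtype. Every mouse expressed a hemagglutinin tag on astrocyte ribosomes and 1 of the 2 peptides, so no library here shows astrocytes without a peptide. The contrast therefore reads the substitution, not the presence of a peptide. The labels say that expression was in astrocytes, and do not name the promoter, the vector or the protein that carried the tag. The series' design text speaks of 4 mice, without saying whether these are 4 per construct or 4 in all. Numbers 1 to 4 are given within each construct, and nothing states that each stands for a separate animal. A p-value here therefore covers only the spread among these libraries, which may be partly technical.

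Receptors coupled to Gq activate phospholipase C beta, which makes inositol trisphosphate and releases calcium from the endoplasmic reticulum. The kinase from which bARK derives is GRK2, encoded by Adrbk1 (current symbol Grk2). It binds active Gq alpha subunits through a domain related to the regulators of G protein signalling (RGS proteins), which keeps them from their effectors. The aspartate replaced in bARK(D110A) lies in that domain. Astrocytes respond to transmitters such as noradrenaline, glutamate and ATP with calcium signals through this pathway. Precipitating tagged ribosomes enriches the RNA that astrocytes are translating, although RNA of other cells also comes down with them.

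The IP libraries held 44638121 to 51432173 counted reads with bARK(D110A) and 41469718 to 47157883 with bARK. All 28 astrocyte markers, genes such as Aldh1l1, Slc1a2 and Aqp4, were detected in each library, and their summed level was 42573 to 47799 CPM (counts scaled to library size) with bARK(D110A) and 47997 to 55522 CPM with bARK. Of these markers, 27 were more than 2-fold higher in IP than in input on average over both constructs. The same held for 8 of 10 interneuron markers and 6 of 7 ependymal and choroid plexus markers. Enrichment in IP is therefore not particular to astrocyte markers. Rpl22, the protein of the large subunit that is tagged in the usual ribosome-tagging design, stood at 262, 262, 310.1 and 308 CPM in the bARK(D110A) libraries and at 352, 393, 283 and 326 CPM in the bARK libraries. Its log2 fold change, bARK over bARK(D110A), was 0.25 ± 0.10 (SE), with an adjusted p of 0.569, and the groups overlapped. Adrbk1, which encodes the kinase that the peptide is taken from, gave 90.3, 103, 102 and 91.6 CPM in the bARK(D110A) libraries and 108, 103, 91.7 and 128 CPM in the bARK libraries. The groups overlapped here too, with a log2 fold change of 0.15 ± 0.10 and an adjusted p of 0.668. Both groups express a peptide of this kinase, so the level of Adrbk1 does not check which construct a library carries.

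No gene passed the test between the constructs. Of 15006 genes tested with edgeR's quasi-likelihood test, 0 (0%) had a Benjamini-Hochberg adjusted p under 0.05, the threshold used throughout. The smallest adjusted p was 0.324, shared by Alpk1, Trp53inp1, Snhg11, Mcur1 and A330023F24Rik. At an unadjusted p under 0.05 there were 1287 genes (8.58%), 789 higher with bARK (5.26%) and 498 lower (3.32%). The CPM of the 4 bARK and the 4 bARK(D110A) libraries did not overlap in 741 genes (4.94%), 477 of them higher with bARK (3.18%) and 264 lower (1.76%). limma-voom also called 0 genes, with 792 higher and 485 lower at an unadjusted p under 0.05. DESeq2, on the same counts without the edgeR filter, called 37 genes higher and 8 lower of the 11548 to which it gave an adjusted p. Its smallest adjusted p was 3.8e-05, for Alpk1. The edgeR adjusted p of those 45 genes ran from 0.324 to 0.489.

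The differences were small as well as uncalled. The median absolute log2 fold change was 0.076 and the median standard error 0.077. The 95% interval of the difference lay within 2-fold in either direction for 13850 genes (92.3%) and within 1.5-fold for 12032 genes (80.2%). Among the 2384 genes above a mean of 100 CPM these shares were 98.95% and 96.3%, so for most well-detected genes a 1.5-fold difference lies outside the interval. Below 1 CPM, 55.7% of 1596 genes had an interval within 2-fold. Estimated differences over 1.5-fold were found in 230 genes (1.53%), and over 2-fold in 18, of which 12 were under 1 CPM. The other 6 lay between 1 and 10 CPM and comprised Slc17a6 (-1.47), Dlk1 (-1.34), Arhgap36 (-1.27), Lcn2 (1.25), Ubd (-1.22) and Tac2 (-1.19), given as log2 fold changes. These were singled out after their values were seen.

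**Figure D1:**
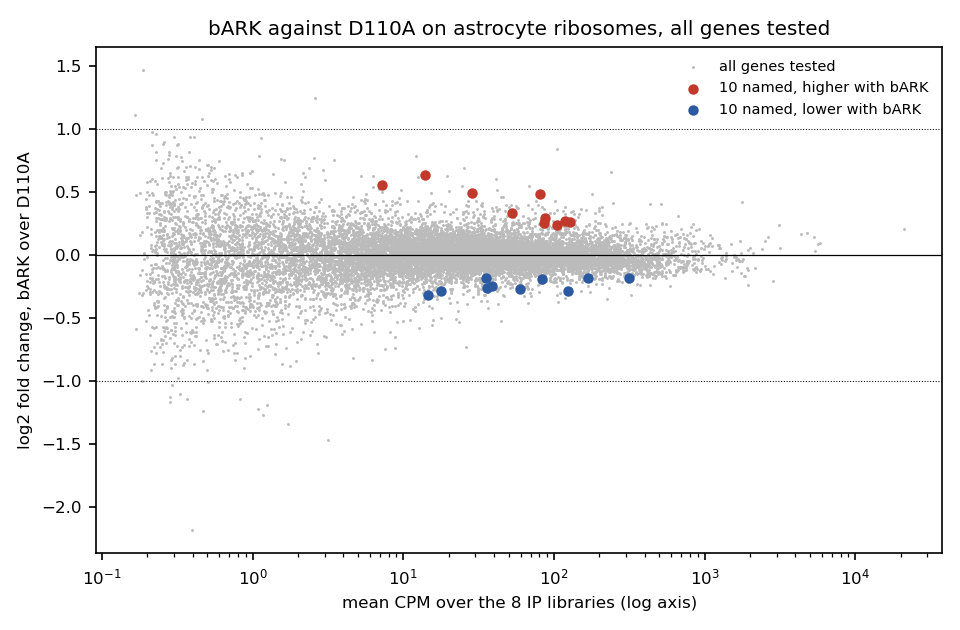
Log2 fold change of bARK over bARK(D110A) (y axis) against mean CPM over the 8 IP libraries (x axis, log scale) for the 15006 genes tested, with dotted lines at a 2-fold difference. The 10 named higher genes (red) and the 10 named lower genes (blue) lie inside the 2-fold lines, and the 18 genes outside them are all below 10 CPM.

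The 10 genes with the smallest p among those higher in every bARK library, with a mean of at least 5 CPM, had log2 fold changes of 0.24 to 0.64 and adjusted p-values of 0.324 to 0.468. Alpk1, which encodes alpha-kinase 1, a cytosolic sensor of bacterial sugars (chr3:127666718-127780547 in mm10), was at 6.01, 6.12, 5.53 and 5.73 CPM in bARK(D110A) libraries 1 to 4 and at 8.73, 9.19, 8.29 and 8.14 CPM in bARK libraries 1 to 4. The lowest bARK library stood above the highest bARK(D110A) library, with a log2 fold change of 0.56 ± 0.07. Trp53inp1, a nuclear protein induced by p53 (chr4:11156441-11174379), stood at 115, 116, 117 and 119 CPM in the bARK(D110A) libraries and at 134, 147, 141 and 137 CPM in the bARK libraries. Aen, a nuclease also induced by p53 (chr7:78895927-78911209), gave 80.4, 72.6, 77.7 and 81.5 CPM in the bARK(D110A) libraries and 93.8, 96.3, 89.5 and 93.6 CPM in the bARK libraries. Both genes differed by 0.26 on the log2 scale, with SEs of 0.04 and 0.05. Mcur1, a regulator of calcium uptake into mitochondria (chr13:43538406-43560344), was at 48.8, 44.9, 46.9 and 45.9 CPM in bARK(D110A) libraries 1 to 4 and at 57.4, 61.983, 54.3 and 61.9 CPM in bARK libraries 1 to 4. Its log2 fold change was 0.34 ± 0.05, and in input it was -0.00 ± 0.08.

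The same rule named 2 long noncoding RNAs. Snhg11, a host gene of small nucleolar RNAs (chr2:158375713-158386474), stood at 70.4, 60.4, 69.1 and 70.4 CPM in the bARK(D110A) libraries and at 96.1, 106, 91.6 and 84.1 CPM in the bARK libraries. A330023F24Rik, a noncoding transcript on chromosome 1 (chr1:195017399-195037908), gave 9.82, 9.15, 11.9 and 12.9 CPM in the bARK(D110A) libraries and 15.978, 16.9, 17.9 and 17.3 CPM in the bARK libraries. Their log2 fold changes were 0.48 ± 0.08 and 0.64 ± 0.10. Both were lower in IP than in input over the constructs, by -2.57 and -2.29 on the log2 scale. Ccnd2, cyclin D2 of the G1 phase of the cell cycle (chr6:127125162-127152188), was at 113, 101, 111 and 106 CPM in bARK(D110A) libraries 1 to 4 and at 124, 134, 129 and 130.2 CPM in bARK libraries 1 to 4. Nipbl, the loader of cohesin onto chromosomes (chr15:8289824-8465315), stood at 93.3, 96.3, 93.8 and 102 CPM in the bARK(D110A) libraries and at 109, 116, 113 and 116 CPM in the bARK libraries. Vcl, vinculin of focal adhesions (chr14:20929383-21033676), gave 76.9, 72.963, 80.6 and 82.2 CPM in the bARK(D110A) libraries and 90.5, 91.6, 102 and 98.1 CPM in the bARK libraries. In each of these 3 genes every bARK library stood above every bARK(D110A) library, by log2 fold changes of 0.27, 0.24 and 0.29. Igfbp2, a secreted protein that binds insulin-like growth factors (chr1:72824480-72852474), was at 21.973, 25.3, 25.963 and 22.3 CPM in bARK(D110A) libraries 1 to 4 and at 29.4, 37.5, 30.6 and 36.8 CPM in bARK libraries 1 to 4. Its log2 fold change was 0.49 ± 0.09. Ccnd2 was at 0.29 ± 0.08 in input as well, with an adjusted p of 0.774 there.

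The 10 genes named on the lower side by the same rule had log2 fold changes of -0.32 to -0.18 and each an adjusted p of 0.468. Kcnq5, a voltage-gated potassium channel of the M current in neurons (chr1:21398399-21962650), stood at 131, 138, 147 and 125 CPM in the bARK(D110A) libraries and at 109.5, 106, 121 and 108 CPM in the bARK libraries. Lmo3, a LIM-only transcription cofactor (chr6:138362918-138582206), gave 60.8, 67.4, 67.8 and 62.3 CPM in the bARK(D110A) libraries and 55.049, 53.4, 57.6 and 47.8 CPM in the bARK libraries. All 4 bARK libraries stood below all bARK(D110A) libraries for both, by -0.28 and -0.27 on the log2 scale. Usp22, a deubiquitinase of the SAGA coactivator complex (chr11:61151781-61175059), was at 332, 352, 331 and 325 CPM in bARK(D110A) libraries 1 to 4 and at 294, 284, 300.4 and 300.4 CPM in bARK libraries 1 to 4. Rundc3b, a RUN domain protein (chr5:8490336-8623084), stood at 39.7, 43.5, 43.6 and 40.8 CPM in the bARK(D110A) libraries and at 37.1, 34.955, 35.5 and 34.1 CPM in the bARK libraries. Hrasls, an acyltransferase of phospholipids now named Plaat1 (chr16:29209133-29230531), gave 15.8, 15.8, 16.1 and 17.3 CPM in the bARK(D110A) libraries and 12.3, 11.957, 14.8 and 13.1 CPM in the bARK libraries. Their log2 fold changes were -0.19 ± 0.04, -0.24 ± 0.05 and -0.32 ± 0.07.

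Iqgap2, a scaffold protein of the actin cytoskeleton (chr13:95627177-95892280), was at 37.8, 41.2, 40.2 and 36.968 CPM in bARK(D110A) libraries 1 to 4 and at 29.6, 33.4, 34.7 and 32.6 CPM in bARK libraries 1 to 4. Filip1, which binds the actin crosslinker filamin A (chr9:79805018-80012851), stood at 19.036, 19.6, 20.9995 and 18.9 CPM in the bARK(D110A) libraries and at 14.8, 16.966, 17.6 and 14.9 CPM in the bARK libraries. Log2 fold changes of these cytoskeletal genes were -0.26 ± 0.06 and -0.29 ± 0.07, with no overlap between the groups. Rab11fip2, an effector of Rab11 on recycling endosomes (chr19:59893502-59943656), gave 84.5, 91.8, 91.1 and 84.6 CPM in the bARK(D110A) libraries and 79.3, 74.7, 75.7 and 79.4 CPM in the bARK libraries. Trim24, a chromatin reader that modulates nuclear receptors (chr6:37870811-37968445), was at 37.4, 38.1, 37.9 and 37.956 CPM in bARK(D110A) libraries 1 to 4 and at 31.9, 35.3, 33.3 and 32.9 CPM in bARK libraries 1 to 4. 6330403K07Rik, a protein-coding gene at chr11:71031941-71033617, stood at 171, 179, 179 and 182 CPM in the bARK(D110A) libraries and at 149.9, 169, 154 and 155 CPM in the bARK libraries. The last 3 had log2 fold changes of -0.19, -0.18 and -0.18, each with groups that did not overlap. Of the 10 genes on the higher side, 6 were more than 2-fold enriched in IP over input, and of the 10 on the lower side 0 were. Among the 15006 genes tested 2027 were so enriched, and this enrichment uses the same IP libraries as the contrast. In input the 20 genes had log2 fold changes of -0.08 to 0.29, none with an adjusted p under 0.774. The difference of IP from input was not called for any of them either, with the smallest adjusted p at 0.825. DESeq2 called all 10 on the higher side and 6 of the 10 on the lower side, among its 45 calls in 11548 genes. The 20 genes were picked by their p and lack of overlap in the same libraries, so these calls are no independent support.

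**Figure D2:**
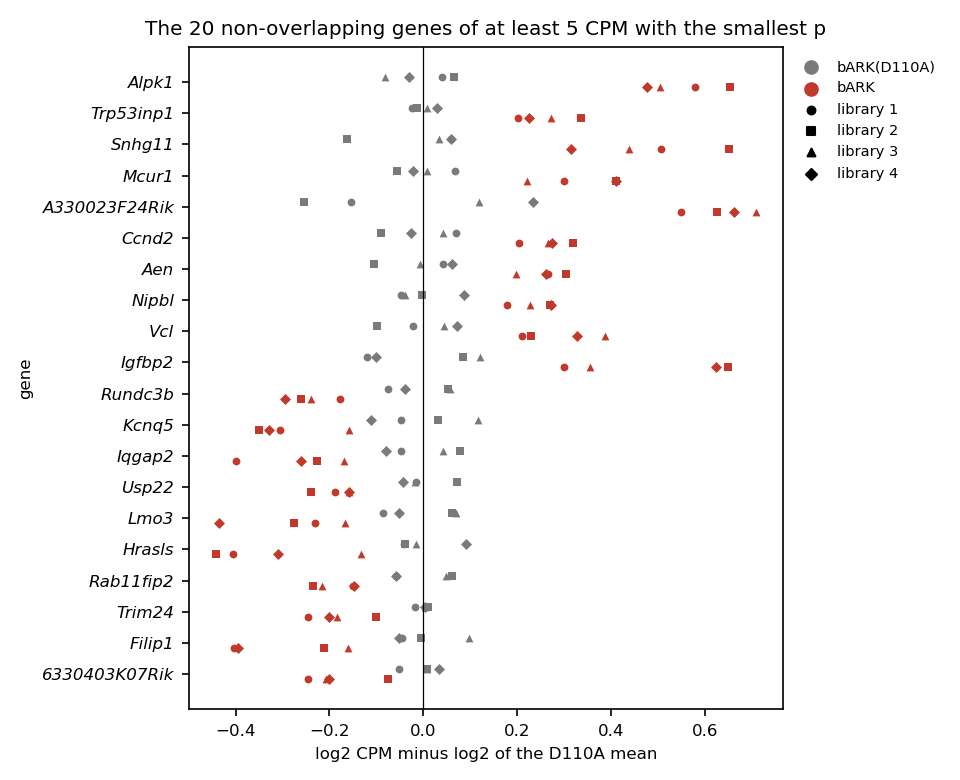
CPM in each IP library on the log2 scale, relative to the mean of the 4 bARK(D110A) libraries (x axis), for the 20 named genes (y axis), with bARK(D110A) in grey, bARK in red and a marker shape per library. Red and grey points do not overlap in any row, which is how these genes were chosen, and no red point reaches 1 (2-fold).

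The pathway that the peptide acts on was read first through its receptors. Of 30 genes for Gq-coupled receptors 28 were tested, and at an unadjusted p under 0.05 1 was higher with bARK and 3 were lower, with a median log2 fold change of -0.11 beside 0.00 for all genes. Over all genes 5.26% were higher and 3.32% lower at this p, and the groups did not overlap in 3.18% with bARK higher and in 1.76% with bARK lower. Ednra, the endothelin A receptor, gave 5.93, 5.32, 5.49 and 6.47 CPM in the bARK(D110A) libraries and 7.31, 7.47, 6.92 and 6.89 CPM in the bARK libraries. It did not overlap between the groups and had a log2 fold change of 0.30 ± 0.08 (adjusted p = 0.468). Grm5, the metabotropic glutamate receptor mGluR5, was at 597, 616, 738 and 602 CPM in bARK(D110A) libraries 1 to 4 and at 531, 538, 593 and 485 CPM in bARK libraries 1 to 4. The lowest bARK(D110A) library was narrowly above the highest bARK library, and the log2 fold change was -0.25 ± 0.08 (adjusted p = 0.489). Grm5 is also expressed by spiny projection neurons, a cell type of the striatum whose RNA is also present in these libraries. Htr2c, a serotonin receptor, was at -0.26 ± 0.11 with overlapping groups. The receptors that respond to noradrenaline and ATP in astrocytes included Adra1a at 0.05 ± 0.07, Adra1b at -0.04 ± 0.39, Adra1d at 0.36 ± 0.28 and P2ry1 at -0.30 ± 0.15, and none of these had an unadjusted p under 0.05. Ednrb, the endothelin B receptor, was at a mean of 416 CPM and had a log2 fold change of 0.06 ± 0.09.

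Downstream of the receptors, 25 of 26 genes for Gq alpha subunits, phospholipase C beta, calcium stores and protein kinase C were tested. Of these 3 were higher with bARK at an unadjusted p under 0.05 and 0 were lower, and the median log2 fold change was 0.003, which changes sign with another scaling. The 3 genes are 12% of the 25, beside 5.26% higher and 3.32% lower of all genes. In all 3 the groups were apart, beside 3.18% of all genes with bARK higher. With so few members these shares are uncertain, and their difference from all genes was not tested. Itpr2, the main inositol trisphosphate receptor of astrocytes, stood at 115, 109.99, 126 and 122 CPM in the bARK(D110A) libraries and at 137, 153, 137 and 137 CPM in the bARK libraries. The groups did not overlap, with a log2 fold change of 0.25 ± 0.06 (adjusted p = 0.468), while in input it was at -0.08 ± 0.07. Orai1, the plasma membrane channel of store-operated calcium entry, gave 9.80, 8.996, 9.61 and 9.35 CPM in the bARK(D110A) libraries and 11.2, 11.8, 9.996 and 11.6 CPM in the bARK libraries. Ryr1, a ryanodine receptor of calcium stores, was at 51.9, 41.1, 53.4 and 47.5 CPM in bARK(D110A) libraries 1 to 4 and at 54.7, 56.9, 57.043 and 54.9 CPM in bARK libraries 1 to 4. These were at 0.24 ± 0.07 and 0.20 ± 0.07, with the groups apart for both. The direct partner of the peptide, Gq alpha, is encoded by Gnaq, which was at 0.05 ± 0.04, and by its relative Gna11, at -0.05 ± 0.04. Plcb1, Plcb3 and Plcb4, the phospholipases that they activate, were at -0.10 ± 0.07, 0.14 ± 0.08 and 0.06 ± 0.07. The calcium pump gene Atp2a2 was at 0.02 ± 0.04. The 95% intervals of all 25 genes lay within 2-fold.

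**Figure D3:**
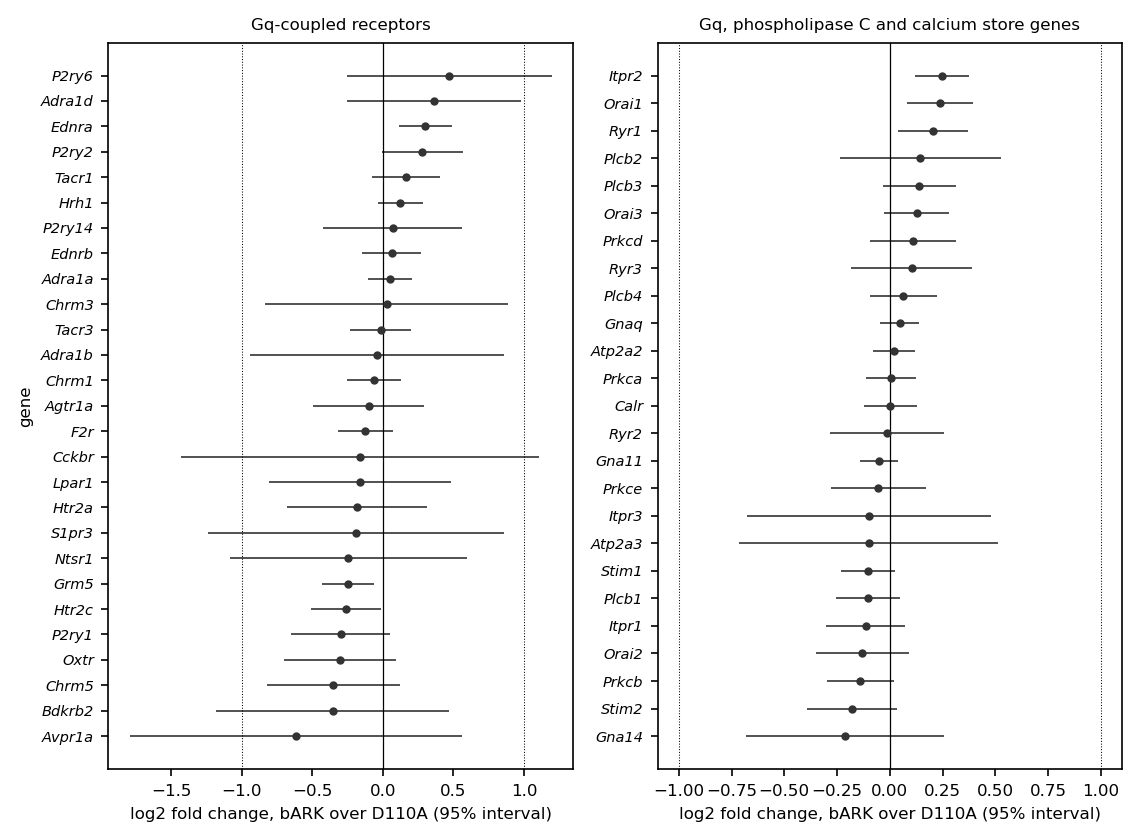
Log2 fold change of bARK over bARK(D110A) with its 95% interval (x axis) for 27 of the 28 tested receptors that couple to Gq (left) and 25 genes of the pathway downstream (right), with dotted lines at a 2-fold difference. The intervals on the right all lie inside the dotted lines, and the widest intervals on the left belong to low-count receptors such as Avpr1a and Cckbr.

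Receptor kinases, arrestins and RGS genes comprised 19 tested genes, of which 0 were higher and 1 lower at an unadjusted p under 0.05. That gene was Rgs14, at -0.19 ± 0.08. This and the next 2 counts stand beside 5.26% higher and 3.32% lower of all genes, and 3.18% higher with no overlap. The other receptor kinases Adrbk2, Grk5 and Grk6 were at 0.04 ± 0.06, 0.06 ± 0.06 and 0.01 ± 0.05, and the arrestins Arrb1 and Arrb2 at 0.03 ± 0.05 and -0.06 ± 0.09. Of 17 genes for other G protein alpha subunits and adenylyl cyclases 2 were higher and 0 lower, with a median of -0.03. They were Gna13, at 0.16 ± 0.06, and Gnai3, at 0.14 ± 0.06. Among 22 immediate early genes, which cells transcribe within minutes of stimulation, 2 were higher and 0 lower, with a median of 0.12. Egr1, a zinc finger transcription factor of this class, stood at 49.1, 65.3, 73.2 and 73.029 CPM in the bARK(D110A) libraries and at 77.3, 78.1, 102 and 93.3 CPM in the bARK libraries. The lowest bARK library stood above the highest bARK(D110A) library, with a log2 fold change of 0.43 ± 0.15 (adjusted p = 0.505). In input Egr1 was at 0.48 ± 0.17. Fos, the gene most often used as an activity marker, was at -0.15 ± 0.23, and Fosl1 at 0.70 ± 0.29 with a mean under 1 CPM.

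Markers of astrocytes themselves gave small positive differences. Of 28 markers, 10 were higher with bARK at an unadjusted p under 0.05 and 0 lower, 5 did not overlap between the groups, and the median log2 fold change was 0.11. Of all genes 5.26% were higher at this p, and 3.18% were higher with no overlap. Of the markers 27 belong to the 2027 genes more than 2-fold enriched in IP, a class in which 16% were higher at this p, 69.3% had a positive log2 fold change and the median was 0.083. Aldh1l1, a folate enzyme used as a pan-astrocyte marker, gave 386, 359.7, 389 and 399 CPM in the bARK(D110A) libraries and 404, 465, 463 and 447 CPM in the bARK libraries. Fgfr3, a fibroblast growth factor receptor, was at 413, 406, 426 and 410.2 CPM in bARK(D110A) libraries 1 to 4 and at 469, 557, 438 and 470.2 CPM in bARK libraries 1 to 4. The groups were apart for both, by 0.21 ± 0.06 and 0.23 ± 0.07 (adjusted p = 0.468 and 0.489). Acsbg1, a fatty acid activating enzyme, stood at 775, 787, 871 and 835 CPM in the bARK(D110A) libraries and at 904, 1051, 894 and 903 CPM in the bARK libraries. This gene was at 0.20 ± 0.07, again with no overlap. Gfap, the intermediate filament of reactive astrocytes, was at 0.06 ± 0.28 with overlapping groups. In input the median of the markers was -0.10, of the opposite sign, so the list did not stand higher in whole striatal RNA. The mean log2 CPM of the list was 8.91 to 9.01 with bARK(D110A) and 8.98 to 9.18 with bARK, and these ranges overlapped.

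Transport genes, which clear glutamate, potassium and water and share 10 of their 17 members with other lists, were higher in 7 cases and lower in 0, with a median of 0.14. Of the 17, 15 belong to the class enriched in IP. At the unadjusted p of these counts, under 0.05, 16% of that class and 5.26% of all genes were higher. Slc1a2, the main glutamate transporter, known as GLT-1, gave 18294, 17912, 22048 and 19427 CPM in the bARK(D110A) libraries and 22379.6, 24949.8, 21407 and 20743 CPM in the bARK libraries. The groups overlapped, with a log2 fold change of 0.20 ± 0.08. Kcnj10, the inward rectifier potassium channel Kir4.1, was at 0.18 ± 0.08. Of 14 tested genes by which astrocytes regulate synapses, 13 belong to the class enriched in IP. Among the 14, 4 were higher and 0 lower, with a median of 0.06. Gpc6, a glypican that promotes excitatory synapses, was at 43.6, 39.8, 45.7 and 43.970 CPM in bARK(D110A) libraries 1 to 4 and at 47.1, 56.3, 51.5 and 50.3 CPM in bARK libraries 1 to 4. The groups were apart, by 0.25 ± 0.06. Chrdl1, a secreted antagonist of bone morphogenetic proteins that promotes synapse maturation, was at 0.36 ± 0.11, and Mertk, a phagocytic receptor, at 0.35 ± 0.13, both with overlap. Cholesterol synthesis genes, 14 of 22 in the class enriched in IP, had 5 higher and 0 lower, with a median of 0.18. Of the 22 log2 fold changes 21 were positive. Of these Tm7sf2, a sterol reductase, did not overlap and was at 0.30 ± 0.09.

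Energy metabolism gave small differences. The counts in this paragraph, at an unadjusted p under 0.05, stand beside 5.26% higher and 3.32% lower of all genes. With no overlap 3.18% of all genes were higher. In the class enriched in IP 16% were higher at this p. That class holds 11 of the antioxidant genes, 9 of the Hippo, 12 of the Notch and 10 of the matrix genes below. Of 21 genes for glycolysis, lactate and glycogen, 1 was higher and 0 lower, with a median of 0.05, and that gene was Aldoc, the aldolase of astrocytes, at 0.24 ± 0.08. Of 49 oxidative phosphorylation genes 1 was higher and 0 lower, with a median of 0.03, and all 49 intervals lay within 2-fold. Of 19 antioxidant and glutathione genes 4 were higher and 0 lower, with a median of 0.08. Nfe2l2, the transcription factor NRF2 that controls this response, stood at 90.963, 79.014, 80.1 and 85.4 CPM in the bARK(D110A) libraries and at 97.022, 93.7, 92.1 and 97.003 CPM in the bARK libraries. Hmox1, heme oxygenase, one of its targets, gave 23.6, 21.2, 21.8 and 24.5 CPM in the bARK(D110A) libraries and 24.8, 32.6, 27.1 and 38.030 CPM in the bARK libraries. Neither gene overlapped between the groups, and they were at 0.18 ± 0.05 and 0.43 ± 0.13. Clock genes had 1 higher and 0 lower of 20, with a median of 0.03, led by Rorb at 0.17 ± 0.07. Hippo pathway and YAP target genes had 4 higher and 0 lower of 15, with a median of 0.13, and Tead1, the transcription factor partner of YAP, was at 0.19 ± 0.05 with the groups apart. Notch, BMP and Id genes had 4 higher and 1 lower of 19, with a median of 0.13, and the lower one was Dll1, a Notch ligand, at -0.17 ± 0.06. Extracellular matrix genes had 3 higher and 0 lower of 21, with a median of 0.13. Fn1, fibronectin, was at 6.01, 4.44, 5.26 and 4.61 CPM in bARK(D110A) libraries 1 to 4 and at 7.46, 8.15, 7.16 and 6.83 CPM in bARK libraries 1 to 4. It did not overlap and was at 0.54 ± 0.11.

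The list with the most members at an unadjusted p under 0.05 was that of p53 targets, genes that the p53 transcription factor induces in arrest, repair and cell death. Like the other lists, it was chosen with earlier results of these data known. It holds Trp53inp1 and Aen, which were named above for their small p. All 30 members were tested, and 15 were higher with bARK and 0 lower, beside 5.26% and 3.32% of all genes. In 10 of the 30 the groups did not overlap, each with bARK higher, beside 3.18% of all genes. The median log2 fold change was 0.21. The mean log2 CPM of the list was 4.78, 4.74, 4.64 and 4.69 in bARK(D110A) libraries 1 to 4 and 4.85, 4.85, 4.86 and 4.94 in bARK libraries 1 to 4. Every bARK library stood above every bARK(D110A) library, and the same held for 2 of the other 35 lists with tested members. Cdkn1a, the cell cycle inhibitor p21, stood at 54.2, 47.7, 45.1 and 46.3 CPM in the bARK(D110A) libraries and at 59.5, 55.972, 61.4 and 76.3 CPM in the bARK libraries. Ccng1, cyclin G1, gave 421, 389, 397 and 351 CPM in the bARK(D110A) libraries and 475, 459, 424 and 457 CPM in the bARK libraries. Eda2r, a receptor of the tumour necrosis factor family, was at 29.8, 33.4, 29.6 and 32.7 CPM in bARK(D110A) libraries 1 to 4 and at 33.9, 38.9, 36.4 and 44.5 CPM in bARK libraries 1 to 4. All 3 had groups apart, with log2 fold changes of 0.39 ± 0.10, 0.22 ± 0.06 and 0.29 ± 0.08. Bax, which permeabilises mitochondria in apoptosis, was at 0.20 ± 0.05, and Tnfrsf10b, a death receptor, at 0.50 ± 0.12, both apart. Mdm2, the ubiquitin ligase that restrains p53, was at 0.15 ± 0.07 with overlapping groups, and Plk2, Btg2 and Rrm2b were at -0.09 ± 0.08, -0.03 ± 0.20 and -0.06 ± 0.05. No member had an adjusted p under 0.324 with edgeR. DESeq2 called 5 of the 30, among its 45 calls in 11548 genes. These 5 include Trp53inp1 and Aen and come from the same libraries, so they are no independent support. Of the 15 members counted as higher, 12 were more than 2-fold enriched in IP, a class in which 16% of all genes were higher at this p. In input the median of the list was -0.00508. The part that the enrichment class has in these differences was not tested.

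Promoter sequence is shown for 3 of these genes, because p53 binds a known site. RefSeq promoters of GRCm38.p6 (the mm10 assembly), from 250 bases before to the start site, were searched on both strands for the p53 response half-site. It was found in 9 of the 22 members with a promoter in the table and in 8.20% of 27025 genes. Windows of 60 bases on the gene strand, 5′ to 3′, have the half-site in capitals and belong to Cdkn1a at chr17:29090903-29090962 on the plus strand, Mdm2 at chr10:117710910-117710969 on the minus strand and Ccng1 at chr11:40755437-40755496 on the minus strand.
Cdkn1a: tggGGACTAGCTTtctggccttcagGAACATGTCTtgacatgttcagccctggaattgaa
Mdm2: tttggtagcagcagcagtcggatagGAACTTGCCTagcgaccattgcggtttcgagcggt
Ccng1: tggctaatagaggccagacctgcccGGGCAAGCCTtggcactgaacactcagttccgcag
The Cdkn1a window holds 2 matches and the others 1 each. A match describes these letters and not binding. The members were listed as p53 targets, so their share with a match does not bear on the constructs. Of the 3 genes, Cdkn1a and Ccng1 had groups apart and Mdm2 did not.

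The integrated stress response list holds genes induced through the transcription factor ATF4 when translation is curbed. Of 20 genes 8 were higher with bARK at an unadjusted p under 0.05 and 0 lower, 5 had groups apart, and the median was 0.16. Of all genes 5.26% were higher and 3.32% lower at this p, and 3.18% were higher with groups apart. The class enriched in IP, in which 16% were higher, holds 8 of the 20. Nupr1, a stress-induced chromatin protein, stood at 20.2, 14.2, 16.7 and 14.8 CPM in the bARK(D110A) libraries and at 22.1, 24.8, 23.7 and 23.2 CPM in the bARK libraries. Atf5, a transcription factor related to ATF4, gave 15.5, 13.1, 15.8 and 16.5 CPM in the bARK(D110A) libraries and 16.6, 21.1, 20.5 and 22.6 CPM in the bARK libraries. Atf4, the factor itself, was at 77.040, 81.8, 85.8 and 93.6 CPM in bARK(D110A) libraries 1 to 4 and at 94.7, 104, 98.035 and 101 CPM in bARK libraries 1 to 4. In each of these the lowest bARK library stood above the highest bARK(D110A) library, with log2 fold changes of 0.51 ± 0.10, 0.41 ± 0.10 and 0.23 ± 0.06 (adjusted p = 0.468, 0.468 and 0.468). Slc7a5, a large neutral amino acid transporter, was at 0.21 ± 0.06, and Sesn2, a stress sensor shared with the p53 list, at 0.22 ± 0.05, both apart. Other ATF4 targets overlapped between the groups, with the asparagine synthetase gene Asns at -0.06 ± 0.05, Trib3 at -0.38 ± 0.28, Psat1 at 0.08 ± 0.05 and Shmt2 at 0.00 ± 0.05. The list means were 4.85 to 4.98 log2 CPM with bARK(D110A) and 4.99 to 5.13 with bARK, which do not overlap. The letters TGATGCAA, the core of the site of ATF4 with C/EBP factors, stood on either strand in the promoters of 5 of 19 members and of 0.918% of all genes. Nupr1 and Atf3 are shown as examples with the core in capitals, read here on the opposite strand, for Nupr1 at chr7:126625547-126625606 on the minus strand and Atf3 at chr1:191183410-191183469 on the minus strand.
Nupr1: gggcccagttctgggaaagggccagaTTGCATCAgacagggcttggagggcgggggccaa
Atf3: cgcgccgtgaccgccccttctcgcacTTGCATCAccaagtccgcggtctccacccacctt
The share and the matches describe promoters and not a difference between the constructs. Atf3 was at 0.57 ± 0.27 with a mean of 2.08 CPM and overlapping groups.

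Glucocorticoid response genes, 6 of which stand in other lists too, had 5 higher and 1 lower of 20, with a median of 0.19. The lower one was Nr3c2, the mineralocorticoid receptor, at -0.09 ± 0.04. The counts in this paragraph are at an unadjusted p under 0.05. They stand beside 5.26% higher and 3.32% lower of all genes, and 3.18% higher with no overlap. Ddit4, an inhibitor of mTOR signalling, did not overlap and was at 0.22 ± 0.06. Genes of the unfolded protein response and chaperones had 0 higher and 0 lower of 20, with a median of 0.05, and Hspa5, the chaperone BiP, was at 0.12 ± 0.06. Cytosolic ribosomal protein genes had 8 higher and 0 lower of 57, with a median of 0.09, and their counts are uncertain because near-identical pseudogenes can share reads. Noncoding RNAs kept in the nucleus had 6 higher and 0 lower of 8, the largest share of any list, with a median of 0.34. Meg3, an imprinted noncoding RNA, stood at 100.00, 74.6, 92.8 and 97.3 CPM in the bARK(D110A) libraries and at 119, 124, 117 and 108 CPM in the bARK libraries. Malat1, an abundant RNA of nuclear speckles, gave 1726, 1530.5, 1210.02 and 1539 CPM in the bARK(D110A) libraries and 2314, 2266, 1863 and 1618 CPM in the bARK libraries. Meg3 did not overlap and was at 0.36 ± 0.09, and Malat1 overlapped and was at 0.42 ± 0.14. The list means were 5.17, 4.97, 4.97 and 5.12 log2 CPM in bARK(D110A) libraries 1 to 4 and 5.43, 5.44, 5.33 and 5.22 in bARK libraries 1 to 4, without overlap. These RNAs are not translated, and their median in IP was -2.35 relative to input on the log2 scale. Whether their level in IP has a part in the other differences was not tested.

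**Figure D4:**
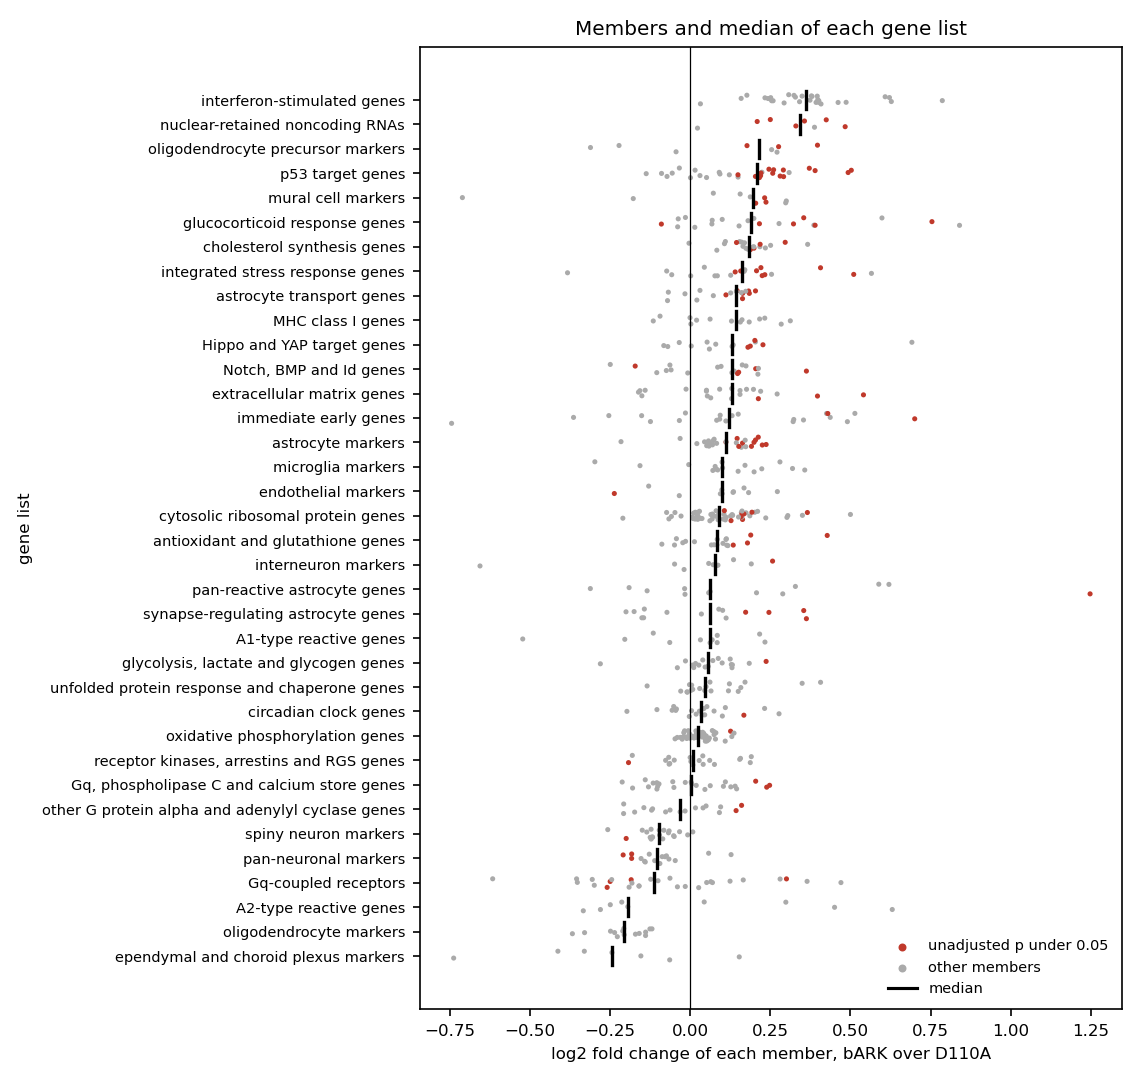
Log2 fold change of each tested member (points, red where the unadjusted p is under 0.05) and the median (black bar) for the 36 gene lists with tested members (y axis), in order of the median. Interferon-stimulated genes have the highest median and no red point. Red points lie on the positive side only for p53 targets, noncoding RNAs, astrocyte markers and stress response genes. The same holds for other lists, such as transport, cholesterol synthesis and ribosomal protein genes.

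Interferon-stimulated genes, the antiviral set that type I interferon induces, had the largest median of any list and no member at an unadjusted p under 0.05. Over all genes 8.58% had such a p. All 30 log2 fold changes of the list were positive, with a median of 0.36, and 5 of the 30 intervals lay within 2-fold. Isg15, a ubiquitin-like modifier, was at 21.3, 8.54, 10.6 and 20.6 CPM in bARK(D110A) libraries 1 to 4 and at 13.6, 17.9, 36.6 and 26.3 CPM in bARK libraries 1 to 4. Mx1, a gene of the antiviral GTPase family, is annotated by RefSeq as a transcribed pseudogene. It stood at 8.83, 3.85, 7.40 and 15.2 CPM in the bARK(D110A) libraries and at 7.53, 15.2, 19.7 and 18.6 CPM in the bARK libraries. Ifit1, which binds viral RNA, gave 176, 78.2, 107 and 231 CPM in the bARK(D110A) libraries and 148, 181, 279.7 and 222 CPM in the bARK libraries. The groups overlapped for each, with log2 fold changes of 0.63 ± 0.42, 0.79 ± 0.46 and 0.49 ± 0.37 (adjusted p = 0.693, 0.655 and 0.735). The list mean was 6.19, 5.02, 4.97 and 5.92 log2 CPM in bARK(D110A) libraries 1 to 4 and 5.51, 5.69, 6.48 and 6.12 in bARK libraries 1 to 4. Libraries 2 and 3 of bARK(D110A) were the lowest and library 3 of bARK the highest, with bARK(D110A) library 1 above 3 of the 4 bARK libraries. Leaving out 1 library at a time moved the list median between 0.14, without bARK library 3, and 0.63, without bARK(D110A) library 1. It was 0.21 and 0.18 without bARK(D110A) libraries 2 and 3.

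MHC class I genes, which present peptides to T cells, had 0 higher and 0 lower of 14 at an unadjusted p under 0.05. Of all genes 5.26% were higher and 3.32% lower at this p. The median of the list was 0.14, and it turned to -0.17 without bARK library 3 and to -0.12 without bARK(D110A) library 3. Their list means were 6.75, 5.68, 4.77 and 5.72 log2 CPM in bARK(D110A) libraries 1 to 4 and 5.64, 5.40, 6.59 and 6.12 in bARK libraries 1 to 4. MHC class II genes were added as a list after their values were seen, because H2-Ab1 and Cd74 lead the first principal component, which holds 35.7% of the variance among the IP libraries. Cd74, the invariant chain, was at 78.032, 36.3, 3.15 and 12.9 CPM with bARK(D110A) and at 11.2, 7.91, 40.4 and 19.1 CPM with bARK. The highest and the lowest of the 8 libraries were both bARK(D110A), libraries 1 and 3. The core of the interferon-stimulated response element, 2 copies of GAAA with any 2 bases between them on either strand, stood in the promoters of 12 of the 21 interferon-stimulated genes with a promoter in the table, of 3 of 12 MHC class I genes and of 3.46% of all genes. The windows show, in capitals, the core or its reverse complement for genes of both lists, Ifit1 at chr19:34640779-34640838 on the plus strand, Isg15 at chr4:156200850-156200909 on the minus strand and H2-T23 at chr17:36032791-36032850 on the minus strand.
Ifit1: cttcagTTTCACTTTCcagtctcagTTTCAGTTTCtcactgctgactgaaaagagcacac
Isg15: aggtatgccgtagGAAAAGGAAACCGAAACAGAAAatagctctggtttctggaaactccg
H2-T23: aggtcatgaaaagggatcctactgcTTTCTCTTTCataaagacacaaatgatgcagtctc
Ifit1 holds 2 matches in its window and Isg15 has 3 that overlap. These shares and matches, too, describe promoters and not a difference between the constructs. H2-T23, a nonclassical MHC class I gene, was at 0.06 ± 0.71, an SE that shows how far the libraries of each group lay apart.

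Genes of astrocyte reactivity gave no common direction. The counts in this paragraph are at an unadjusted p under 0.05, at which 5.26% of all genes were higher and 3.32% lower. The pan-reactive list had 1 higher and 0 lower of 13, with a median of 0.06, the A1-type list 0 and 0 of 11, with a median of 0.06, and the A2-type list 0 and 0 of 9, with a median of -0.19. All 3 medians changed sign when some library was left out. The pan-reactive median was -0.11 without bARK(D110A) library 3, the A1-type median -0.24 without bARK library 3 and the A2-type median 0.12 without bARK(D110A) library 1. The A1-type median was also below 0, at -0.06, -0.09 and -0.05, without bARK(D110A) libraries 2, 3 and 4, and the A2-type median was 0.01 without bARK(D110A) library 2. Lcn2, a secreted iron-siderophore binding protein of reactive astrocytes, was at 0.875, 0.612, 2.19 and 2.45 CPM in bARK(D110A) libraries 1 to 4 and at 2.01, 3.64, 5.07 and 3.90 CPM in bARK libraries 1 to 4. The groups overlapped, and the log2 fold change was 1.25 ± 0.47 (adjusted p = 0.554) at a mean of 2.59 CPM, with 1.25 ± 0.46 in input.

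RNA of other cells was present in the IP libraries, and some of it varied between them. In such bulk RNA, fewer cells of a type and less RNA per cell cannot be told apart. Marker counts below are at an unadjusted p under 0.05, at which 5.26% of all genes were higher and 3.32% lower. With no overlap 1.76% of all genes were lower. Pan-neuronal markers had 0 higher and 3 lower with bARK of 16, with a median of -0.10, and all 16 were detected. Their summed level was 4522 to 5909 CPM with bARK(D110A) and 4499 to 5027 CPM with bARK. Syn2, a synaptic vesicle protein, stood at 256, 327, 285 and 281 CPM in the bARK(D110A) libraries and at 249.9, 233, 259 and 253 CPM in the bARK libraries. Celf4, a neuronal RNA-binding protein, gave 220.1, 279.8, 279 and 249 CPM in the bARK(D110A) libraries and 222, 222, 224 and 238 CPM in the bARK libraries. Both overlapped between the groups, at -0.21 ± 0.07 and -0.18 ± 0.07. Spiny projection neuron markers had 0 higher and 1 lower of 20, with a median of -0.10 and a summed level of 6866 to 8802 CPM with bARK(D110A) and 6954 to 7715 CPM with bARK. Foxp2, a transcription factor of these neurons, was at 76.7, 73.6, 77.2 and 70.4 CPM in bARK(D110A) libraries 1 to 4 and at 63.4, 60.8, 69.8 and 65.6 CPM in bARK libraries 1 to 4. It did not overlap and was at -0.20 ± 0.05. The medians of both neuronal lists and of the astrocyte markers thus had opposite signs, and in input the astrocyte median was negative. The part of neuronal RNA in the differences of Grm5, Kcnq5 and the other lower genes was not tested.

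Oligodendrocyte markers, 14 genes of myelin with 0 higher and 0 lower, had a median of -0.21, which was 0.05 without bARK(D110A) library 1. The list means were 8.57, 8.13, 7.03 and 7.82 log2 CPM in bARK(D110A) libraries 1 to 4 and 8.10, 7.42, 7.68 and 7.87 in bARK libraries 1 to 4. Library 1 of bARK(D110A) was the highest and library 3 of the same group the lowest. Precursors of oligodendrocytes had 3 higher and 0 lower of 8, with a median of 0.22. The counts in this paragraph, at an unadjusted p under 0.05, stand beside 5.26% higher and 3.32% lower of all genes. Vcan, the proteoglycan versican, stood at 69.7, 59.1, 52.3 and 51.8 CPM in the bARK(D110A) libraries and at 82.049, 85.4, 69.9 and 69.4 CPM in the bARK libraries. The lowest bARK library lay just under the highest bARK(D110A) library, with a log2 fold change of 0.40 ± 0.11. Interneuron markers had 1 higher and 0 lower of 10 (median 0.08), the higher one being Nos1 at 0.26 ± 0.10. The class enriched in IP holds 8 of the 10. Mural cell markers had 3 higher and 0 lower of 10 (median 0.20), led by Notch3 at 0.20 ± 0.06. Endothelial markers had 0 higher and 1 lower of 11 (median 0.10), which was Itm2a at -0.24 ± 0.10. Microglia markers had 0 higher and 0 lower of 16 (median 0.10), with a summed level of 54.7 to 69.4 CPM with bARK(D110A) and 58.8 to 74.2 CPM with bARK. Ependymal and choroid plexus markers had 0 higher and 0 lower of 7 (median -0.24, and 0.03 without bARK(D110A) library 1), and 0 of 6 red blood cell genes passed the filter on low counts.

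Genes of cortical projection neurons lead the second principal component, which holds 23.6% of the variance, and were added as a list after their values were seen. Slc17a7, the vesicular glutamate transporter of cortical neurons, was at 15.7, 184, 34.041 and 15.2 CPM with bARK(D110A) and at 69.2, 14.1, 13.3 and 139 CPM with bARK. Library 2 of bARK(D110A) and libraries 1 and 4 of bARK were the highest. The list means were 1.55, 4.52, 2.34 and 1.62 log2 CPM in bARK(D110A) libraries 1 to 4 and 3.20, 1.51, 1.47 and 4.24 in bARK libraries 1 to 4. Neither the first nor the second component separated the constructs. The third, with 12.7% of the variance, did, and the fourth, with 9.99%, did not. Leading genes of the third were Slc17a6, Gpr101, Slc17a7 and Gpr174. Of these, Slc17a6 had a mean of 3.14 CPM, overlapping groups and an adjusted p of 0.576. Slc17a7 had a log2 fold change of -0.07 ± 1.13. Pearson correlations of log2 CPM had a median of 0.9949 within the constructs and 0.9952 between them.

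**Figure D5:**
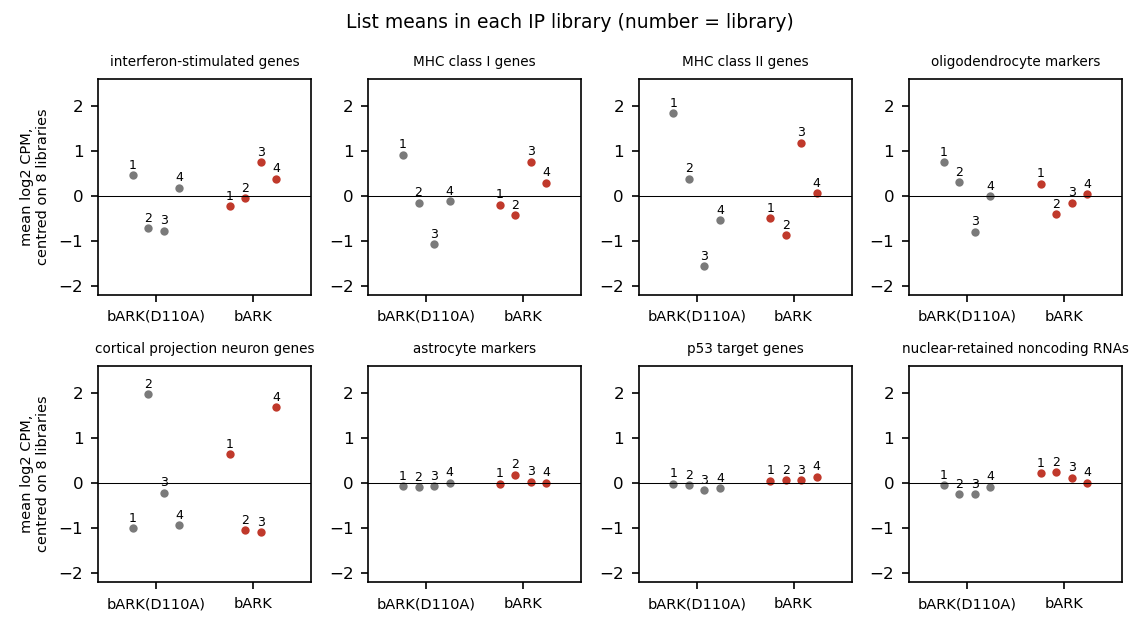
Mean log2 CPM of 8 gene lists in each IP library, centred on the mean of the 8 libraries (y axis), with bARK(D110A) in grey, bARK in red and the library number beside each point. Interferon, MHC, oligodendrocyte and cortical lists spread widely within both constructs, whereas the p53 and noncoding RNA lists spread little and do not overlap.

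Genes enriched in IP as a class stood slightly higher with bARK. Of 2027 genes more than 2-fold higher in IP than in input, 69.3% had a positive log2 fold change, the median was 0.083, and 325 were higher (16%) and 13 lower (0.641%) at an unadjusted p under 0.05. The 11543 genes between the limits had a median of -0.01, with 376 higher and 432 lower, and the 1412 genes depleted in IP a median of 0.023, with 88 higher and 53 lower. In input the median of the enriched genes was -0.09. The classes use the same IP libraries as the contrast, so these counts are a description. The contrast in input called 0 of 15361 genes (0%), with 904 (5.89%) at an unadjusted p under 0.05, and the difference between the IP and the input contrasts called 0 of 15850 (0%), with 951 (6%). DESeq2 and limma-voom also called 0 genes in both.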

How the data were processed

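Gene counts of 8 IP libraries, 4 per construct, were analysed, with the 8 input libraries for reference. The deposited table holds whole-number read counts per gene and library. The submitters' processing notes name bcl2fastq 2.17, STAR, HTSeq, limma and build mm10. Their versions beyond this, the gene annotation and whether counting used strand are not given in the sources used here. Overlapping and antisense genes may therefore share reads. Per the labels' protocols, paired-end libraries came from a Nugen Ovation kit after mRNA enrichment.

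Tests were edgeR 4.0.16 quasi-likelihood F tests (R 4.3.3, robust, TMM scaling, filterByExpr at a minimum count of 10). P-values were adjusted by Benjamini-Hochberg across every tested gene, with calls under 0.05. A p with no tool named is from edgeR, and ± after a log2 fold change is its standard error. The 4 and 4 IP libraries were fitted without a block. Differences of IP from input used all 16 libraries. limma 3.58.1 and DESeq2 1.42.0 were alternatives. List means are of log2(CPM + 0.5), and principal components of log2(CPM + 1). The scripts were tested on simulated data.

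Of 24056 symbols on 1 line each, 22600 matched a current RefSeq symbol of GRCm38.p6 and 1319 an older one only. The 2 symbols on several lines were not named. Some members of the lists are not reported here by name, and stay in the counts and medians.

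Genes were named by rule. Rpl22 and Adrbk1 always were. No gene had an adjusted p under 0.05, so the 10 genes per direction with the smallest p, no overlap and a mean of at least 5 CPM were named, with up to 3 members of each of 37 gene lists by smallest p. Other genes named were chosen after their values were seen. Members and lists were chosen with earlier results of these data known.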

Additional observations from a re-analysis of the deposited data

Results flagged for a closer look

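In 10 of the 316 groups of 4 libraries examined (3.17%), 1 library lay far from the other 3 by Dixon's test at 95%, and chance flags about 1 in 20 groups. Among genes of the bARK(D110A) group, Snhg11 was at 60.4 CPM in library 2, against 69.1 to 70.4 CPM in the other 3. Axl was at 165 CPM in the same library, against 179 to 181 CPM in the other 3. The mean log2 CPM of Notch, BMP and Id genes was 5.37 there, against 5.49 to 5.50. Grm5 was at 738 CPM in library 3, against 597 to 616 CPM in the other 3.

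In the bARK group, Itpr2 was at 153 CPM in library 2 and at 137 CPM in the lowest of the other 3, and Acsbg1 was at 1051 CPM in that library, against 894 to 904 CPM in the other 3. Arpp21 was at 439 CPM in library 3, against 379 to 387 CPM in the other 3, and Rgs14 was at 39.8 CPM in that library, against 34.9 to 35.7 CPM in the other 3. Celf4 was at 238 CPM in library 4, against 222 to 224 CPM in the other 3. Amigo2 was at 23.7 CPM in library 1, against 21.7 to 21.986 CPM in the other 3. No library had more than 3 of the 10 flags, and bARK(D110A) library 2 was the one with 3. The part of single libraries in these differences was not tested beyond leaving each out.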

How the results depend on the processing

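In IP, each of the 19 edgeR and limma fits (as reported, other scalings, filters and covariates, all 16 libraries, each library left out, voom with and without weights) called 0 genes at an adjusted p under 0.05, with the smallest adjusted p between 0.218 and 0.788. Leaving out each library gave 0 to 0 calls in IP, in input and in the difference of both. DESeq2 called 37 higher and 8 lower in IP, and the cause was not tested. limma-voom, the weights and the interferon covariate were added after seeing the data. With the replicate block IP had 0 calls. Deviations of same-numbered libraries correlated at -0.37 to -0.15, within the range of -0.44 to 0.46 for differently numbered ones. So few correlations cannot show whether equal numbers share more than a label. Counts at an unadjusted p under 0.05 ranged, with 1 library left out, from 473 to 927 higher and 313 to 755 lower, the most without bARK(D110A) library 1. Without bARK library 2 there were 473 higher, without bARK library 4 313 lower, and without bARK(D110A) library 2 503 higher and 325 lower. In input, scaling by library size gave 203 higher and 802 lower. A replicate block that joins the IP and input libraries of 1 construct and number gave 1081 higher and 770 lower for the difference, and no filter 581 lower. Of 2249 refitted values of 119 genes, 5 changed sign. Tmem212 was at 0.019 with the oligodendrocyte covariate. Without bARK library 3 Psmb10 was at -0.010 (-0.010 to 0.56) and Tapbp at -0.040 (-0.040 to 0.46), and with the interferon covariate at -0.11 and -0.19. With DESeq2, 20 of the 119 passed, and most of the 119 were named for a small p in the same libraries. Medians of 8 lists changed sign in some setting: oligodendrocyte, ependymal, Gq pathway, receptor kinase and RGS, MHC class I, pan-reactive, A1-type and A2-type. Depth limits genes under 1 CPM, where 55.7% of intervals lay within 2-fold.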
